A study of Mus musculus with 4 samples.

Results

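The Nr4a and Egr genes encode transcription factors that T cells switch on within a short time of a signal through the T cell receptor. The genes described here are Nr4a1, Nr4a2, Nr4a3, Egr1, Egr2, Egr3 and Nab2, 7 of the 19938 genes that had a probe set annotated with exactly 1 gene symbol. They were taken by symbol, and the probe set with the highest mean would have been kept, but each of the 7 had 1 probe set only. All 7 were bright enough to be among the 13956 genes tested, and all 7 Entrez identifiers matched a RefSeq gene.

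The 4 arrays measured total RNA of regulatory T (Treg) cells, CD4 T cells marked by the transcription factor Foxp3 that hold immune responses in check. The wild-type group was 2 samples of genotype Cyld+/+ Foxp3-yfp-cre and the knockout group 2 samples of genotype Cyld fl/fl Foxp3-yfp-cre, all on a C57Bl6 background and 6 to 8 weeks old. Every mouse thus carried the Foxp3-yfp-cre allele, in which Cre recombinase and yellow fluorescent protein (YFP) are made in Foxp3-expressing cells, and YFP+ cells were sorted. Cyld encodes a deubiquitinase that limits NF-kB signalling, and the comparison asks how Treg cells that lack it differ. The labels name the tissue as spleen with lymph nodes in one place and spleen in another, and do not say that replicates came from separate mice, so p-values measure only the spread between these samples, which may be technical.

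Nr4a1 (Nur77), Nr4a2 (Nurr1) and Nr4a3 (Nor1) form a family of orphan nuclear receptors that act without a known natural ligand, bind closely related DNA sites and take part in Treg development and maintenance. Their transcription depends on calcium and calcineurin signalling, and Nr4a1 reporters are used to read the strength of the receptor signal. Egr1, Egr2 and Egr3 are zinc finger factors induced through the MAP kinase pathway, among others. Egr2 and Egr3 restrain T cell activation. Nab2 and its relative Nab1 bind Egr proteins and repress their activity, and Nab2 is itself induced by Egr factors.

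The 3 Nr4a promoters are shown because the 3 genes answer the same kind of signal and yet differed in their values below. Each line gives the 250 bases before the RefSeq start (GRCm38.p6), 5′ to 3′ on the gene's strand, and capitals mark the core of the cyclic AMP response element (CRE), TGACG, or its reverse complement CGTCA.
Nr4a1, chr15:101266596-101266845, plus strand: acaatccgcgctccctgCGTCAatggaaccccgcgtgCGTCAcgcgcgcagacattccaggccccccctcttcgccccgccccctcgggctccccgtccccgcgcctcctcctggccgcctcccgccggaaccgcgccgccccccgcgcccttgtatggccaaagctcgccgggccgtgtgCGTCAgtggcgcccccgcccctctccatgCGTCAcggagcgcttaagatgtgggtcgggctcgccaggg
Nr4a2, chr2:57124004-57124253, minus strand: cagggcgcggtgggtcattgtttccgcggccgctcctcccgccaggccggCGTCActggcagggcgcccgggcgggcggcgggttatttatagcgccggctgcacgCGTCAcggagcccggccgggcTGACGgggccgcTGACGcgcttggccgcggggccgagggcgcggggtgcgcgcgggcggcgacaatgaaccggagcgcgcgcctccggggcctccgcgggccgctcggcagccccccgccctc
Nr4a3, chr4:48045055-48045304, plus strand: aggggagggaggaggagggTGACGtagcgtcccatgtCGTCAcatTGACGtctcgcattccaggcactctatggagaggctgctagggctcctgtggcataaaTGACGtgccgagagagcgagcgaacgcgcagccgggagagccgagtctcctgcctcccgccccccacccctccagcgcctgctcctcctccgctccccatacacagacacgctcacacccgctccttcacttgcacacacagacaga

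Each of the 3 windows held 4 matches to the CRE core on either strand, a motif chosen after the sequences were seen. Of 32851 promoter windows of the same length in the RefSeq table, 17.8% held at least 1 such match and 0.137% held at least 4, these 3 windows among them. The full element TGACGTCA, found in 1.55% of windows, matched none of the 3, and neither did the NBRE, AAAGGTCA, the site that Nr4a monomers bind (1.34% of windows). The EGR motif GCGNGGGCG matched 1 time in the Nr4a1 window and 1 time in the Nr4a2 window, against 4.7% of all windows. The kappa B motif, the binding pattern of NF-kB factors (7.25% of windows), had no match in the 3 Nr4a windows and 2 overlapping matches in 1 of the 5 Egr2 windows. Such matches are letters in a window and not measured binding. A window was listed for 5 of the 7 genes, and Egr1 and Egr3 are named only. The other 4 Egr2 windows each held 1 CArG box, the element bound by serum response factor, which 1.47% of all windows held. These are not separate elements throughout. The letters CCATATATGG at 72, 73 and 133 bases before the start lay at the same spacing from a TGACG, so those windows probably overlap on 1 site. Each of those Egr2 windows held 2 matches to the CRE core, and 3.9% of all windows held at least 2. The search found no match to any of these motifs before Nab2.

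Nr4a2 was the 1 gene of the 7 called as different between the genotypes. It rose in the knockout Treg cells to 2.27 times the wild-type level, while Nr4a1, Egr1, Egr3 and Nab2 read 0.825 to 0.921 times and Nr4a3 and Egr2 read 1.32 and 1.36 times the wild-type level, none of them past the threshold. In bulk samples such as these, more cells with the transcript and more transcript per cell cannot be told apart. Thus 1 of 7 genes was higher and 0 lower at an adjusted p under 0.05 in limma. Over all genes tested, 4.79% were higher and 3.50% lower, 8.29% in all. The median log2 fold change of the 7 genes was -0.12, and that of all genes tested was -0.02.

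**Figure D1:**
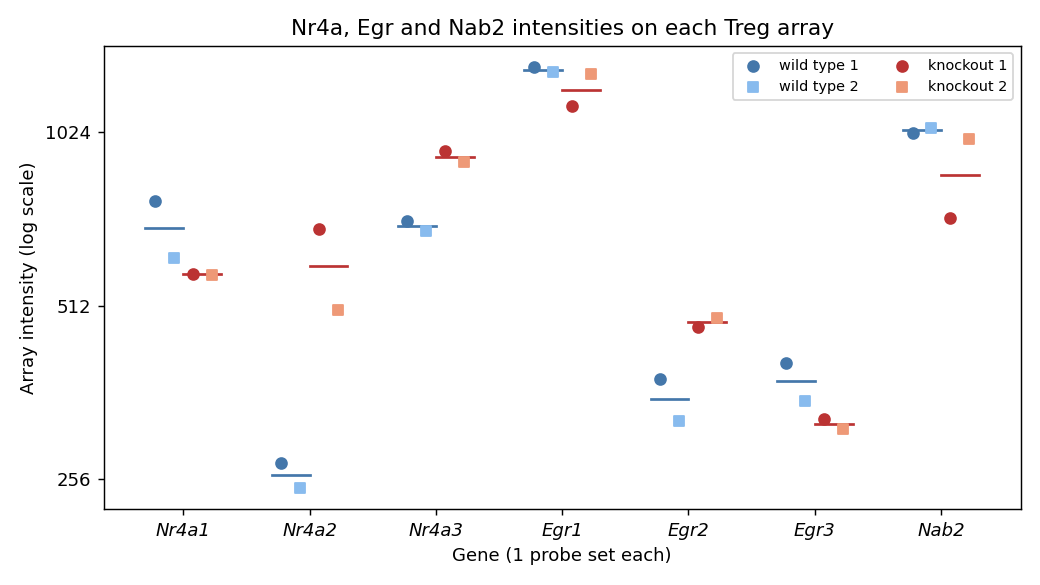
Intensity of each of the 7 genes (1 probe set each, log-scaled axis) on the 2 wild-type arrays (blue) and the 2 knockout arrays (red), with a line at each group's mean. Nr4a2 lies at 247 and 273 in wild type and at 503 and 694 in the knockout, and the groups do not overlap for any of the 7 genes.

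Before the values of single genes, the arrays themselves were compared. Cyld fell to 48.9% of the wild-type intensity (limma adjusted p = 8.89e-08), though which part of the gene was deleted is not in the labels. The T cell and Treg markers Cd3e, Cd3g, Cd4, Foxp3, Il2ra, Ikzf2, Ctla4 and Tnfrsf18 were bright on all arrays and 0 of 8 passed the test. Macrophage and monocyte markers fell in 9 of 10 tested, beside 3.50% of all genes tested. Their summed intensity was 2206 to 2378 on the wild-type arrays against 1024 to 1252 on the knockout arrays. Of 5 tested markers of CD8 T and NK cells, 2 rose, Nkg7 and Eomes, beside 4.79% of all genes tested. The summed intensity of the list was 1153 to 1221 on the wild-type arrays against 2292 to 2614 on the knockout arrays. Cd8a read 92.5 to 120 on all arrays, and Cd8b1 read 362 and 405 in wild type against 469 and 426 in the knockout (adjusted p = 0.491). Of the B cell and dendritic cell markers 0 of 3 and 0 of 4 passed, and the 5 granulocyte markers lay below the filter on intensity. Proliferation genes rose in 11 of 11 tested, beside 4.79% of all genes tested. The knockout arrays also differed from each other. All 11 proliferation genes were higher on replicate 2 than on replicate 1, as were 6450 of all 13956 genes tested. Without knockout replicate 2 the log2 fold change was 0.48 for Ccna2 and 0.98 for Mki67, against 1.01 and 1.13 with all arrays. The Y-linked gene Kdm5d read 127 on replicate 2 against 268 to 275 on the other 3 arrays. Eif2s3y, also Y-linked, read 98.9 on knockout replicate 2 against 219 to 253 on the other arrays. The sex-linked gene Xist read 1306 and 1403 in wild type against 1630 and 2321 in the knockout (limma adjusted p = 0.0291). The part of these differences in the results below was not tested.

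Nr4a2 read 273 and 247 on the wild-type arrays against 694 and 503 on the knockout arrays. Both knockout arrays were higher than both wild-type arrays, and knockout replicate 1 was the highest. The mean intensity went from 260 ± 18.2 to 598 ± 136 (SD, n = 2 per group), a log2 fold change of 1.18 ± 0.17 (SE; limma, adjusted p = 5.03e-10; 95% interval 0.85 to 1.52). Only 0.609% of the genes tested differed by as much or more in size. The rise was called without each of the 4 arrays in turn, with a log2 fold change of 0.95 without knockout replicate 1 and 1.42 without knockout replicate 2. The small p rests on a spread pooled over all genes. With the gene's own spread alone the unadjusted p was 0.0398 and the adjusted p 0.361. That fit without pooling called 0 genes and had 1813 at an unadjusted p under 0.05, 2 of the 7 genes among them. In RefSeq the Nr4a2 gene overlaps an uncharacterised locus, and which of them the probes read was not tested.

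Nr4a1, the family member most used as a reporter of receptor signalling, read 777 and 619 in wild type against 581 and 579 in the knockout. The knockout arrays were nearly alike and below both wild-type arrays, which were further apart. The log2 fold change was -0.26 ± 0.17 (SE, adjusted p = 0.406), and its 95% interval, from -0.59 to 0.07, corresponds to 0.664 to 1.05 times the wild-type level. Without wild-type replicate 1 the log2 fold change was -0.09, and without wild-type replicate 2 it was -0.42.

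Nr4a3 read 719 and 690 in wild type against 948 and 907 in the knockout. Replicates lay close together in each group and the groups were apart. Its log2 fold change of 0.40 ± 0.17 (SE) had a 95% interval of 0.06 to 0.73 for this gene alone, but an adjusted p = 0.148 over all genes. In the fit without pooling its SE was 0.04 and its adjusted p 0.276, against 0.24 and 0.361 for Nr4a2. The order of these 2 genes by p thus depends on the pooled spread. The adjusted p ranged from 0.0514, with an intensity trend in the variance, to 0.557 without wild-type replicate 1.

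Set within each array, the ratio of Nr4a2 to Nr4a1 was higher on both knockout arrays. The log2 ratio was -1.51 and -1.32 on the wild-type arrays against 0.26 and -0.20 on the knockout arrays, a rise of 1.44. For Nr4a3 over Nr4a1 the log2 ratio rose by 0.65 and for Nr4a2 over Nr4a3 by 0.79, again with no overlap between the groups. A ratio of 2 probe sets shows unequal change and not which transcript is more abundant. The 7 ratios computed were chosen with these values known and are given as a description. An exact two-sided permutation test of 2 against 2 arrays cannot give a p below 0.333, which is the value all 7 had, before and after Benjamini-Hochberg adjustment.

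**Figure D2:**
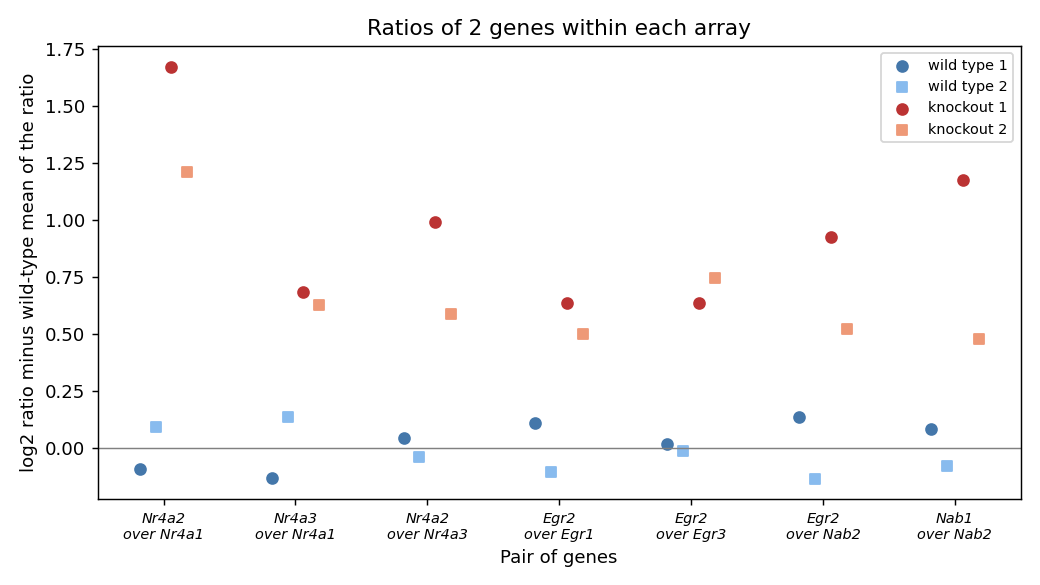
Log2 ratio of 2 genes within each array, minus the wild-type mean of that ratio, for 7 pairs on the 2 wild-type arrays (blue) and the 2 knockout arrays (red). In each pair both knockout points lie above both wild-type points, by the most on average for Nr4a2 over Nr4a1, whose ratio rose by 1.44 on the log2 scale.

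Egr2, which restrains effector responses of T cells, read 382 and 322 in wild type against 470 and 487 in the knockout. Both knockout arrays were higher than both wild-type arrays. The log2 fold change of 0.45 ± 0.17 (SE) did not pass the threshold (adjusted p = 0.0849; 95% interval 0.11 to 0.78), and it did not pass under any alternative tried, where the adjusted p ranged from 0.059 to 0.601. A transcript of uncertain function overlaps Egr2 in RefSeq.

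Egr3, its close relative, read 407 and 350 in wild type against 326 and 312 in the knockout, the opposite order. The log2 fold change was -0.24 ± 0.17 (SE, adjusted p = 0.442; 95% interval -0.57 to 0.09). The log2 ratio of Egr2 to Egr3 was -0.09 and -0.12 on the wild-type arrays against 0.53 and 0.64 on the knockout arrays.

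Egr1, the broadly induced member of the family, read 1326 and 1299 in wild type against 1133 and 1289 in the knockout. Knockout replicate 2 read just below wild-type replicate 2, so that the groups were only just apart. Its log2 fold change of -0.12 ± 0.17 (SE, adjusted p = 0.752; 95% interval -0.45 to 0.21) was the smallest of the 7 in size, and 64.3% of the genes tested differed by as much or more. Egr4, the remaining Egr gene, was dim, read 103 and 132 in wild type against 123 and 99.3 in the knockout, and overlapped between the groups (adjusted p = 0.850).

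Nab2, the corepressor of Egr proteins, read 1020 and 1041 in wild type against 726 and 996 in the knockout. The lower mean in the knockout came mainly from replicate 1. Its log2 fold change was -0.28 ± 0.17 (SE, adjusted p = 0.364), but -0.50 without knockout replicate 2 (adjusted p = 0.0704) and -0.05 without knockout replicate 1. The Nab2 gene overlaps Stat6 in RefSeq. Nab1, the other corepressor of this pair, read 507 and 462 in wild type against 770 and 650 in the knockout and rose by a log2 fold change of 0.55 (adjusted p = 0.0195). That call was lost on leaving out wild-type replicate 1 (adjusted p = 0.170), wild-type replicate 2 (0.370) or knockout replicate 1 (0.0976). The log2 ratio of Nab1 to Nab2 was -1.01 and -1.17 in wild type against 0.08 and -0.61 in the knockout.

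**Figure D3:**
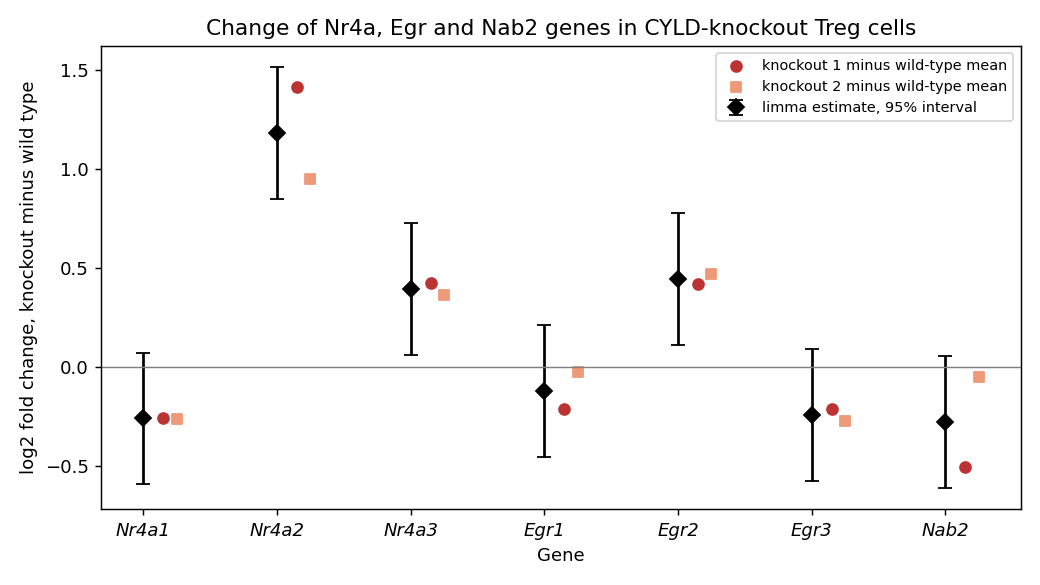
Log2 fold change of each gene, knockout minus wild type, from limma (diamonds, with 95% intervals), beside the difference of each knockout array from the wild-type mean (circle, replicate 1; square, replicate 2). The interval of Nr4a2, 0.85 to 1.52, lies above those of Nr4a1, Nr4a3, Egr1, Egr2, Egr3 and Nab2, and the knockout arrays are furthest apart for Nr4a2 and Nab2.

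For all 7 genes the knockout values lay wholly above or wholly below the wild-type values, 3 above and 4 below. Over all genes tested 48.7% showed no overlap, 22.5% with the knockout higher and 26.2% with it lower. With 2 arrays a group such separation is thus common on these arrays, and Nr4a2 alone passed the test.

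The 2 knockout arrays were then compared with each other. With 1 array on each side there is no replicate error and no test, and a difference past 1.25-fold serves as a description. Nr4a2 was lower on replicate 2 by a log2 difference of -0.47 and Nab2 higher by 0.46, and both were past 1.25-fold. Only 7.49% and 8.08% of the genes tested differed by as much or more between these arrays. The other 5 genes differed by log2 values of -0.06 to 0.19, with Nr4a1 at -0.004. Thus 2 of 7 genes were past 1.25-fold between the knockout arrays, against 24.5% of all genes tested, a share close to the 28.6% of the 7. Between the wild-type arrays 1 of 7 was past 1.25-fold, Nr4a1, which was lower on replicate 2, against 12.9% of all genes tested.

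A list of other early genes of receptor signalling was read the same way between the knockout arrays. Of 35 tested, 12 were lower on replicate 2 past 1.25-fold and 0 higher, a share of 34.3% lower beside 13.1% of all genes tested. Fos, an AP-1 subunit, read 830 on knockout replicate 1 and 457 on replicate 2, with 780 and 804 in wild type. Fosb, another AP-1 subunit, read 477 and 273 on the knockout arrays and 301 and 298 in wild type. Klf6, a Kruppel-like factor, read 622 and 385 on the knockout arrays and 623 and 625 in wild type. Nr4a2 thus lay on the same side as these genes, while Nr4a1, Nr4a3, Egr1, Egr2 and Egr3 lay close to 0 and Nab2 on the other side. Fos, Fosb and Klf6 were named after their values were seen. Heat shock genes, which respond to the handling of cells, lay the same way between these arrays. Of 10 tested, 4 were lower on replicate 2 past 1.25-fold and 0 higher, with log2 differences of -0.88 for Hspa1a, -0.44 for Hsp90aa1, -0.40 for Hsph1 and -0.37 for Dnajb1. The part of handling in the differences between the knockout arrays was not tested.

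**Figure D4:**
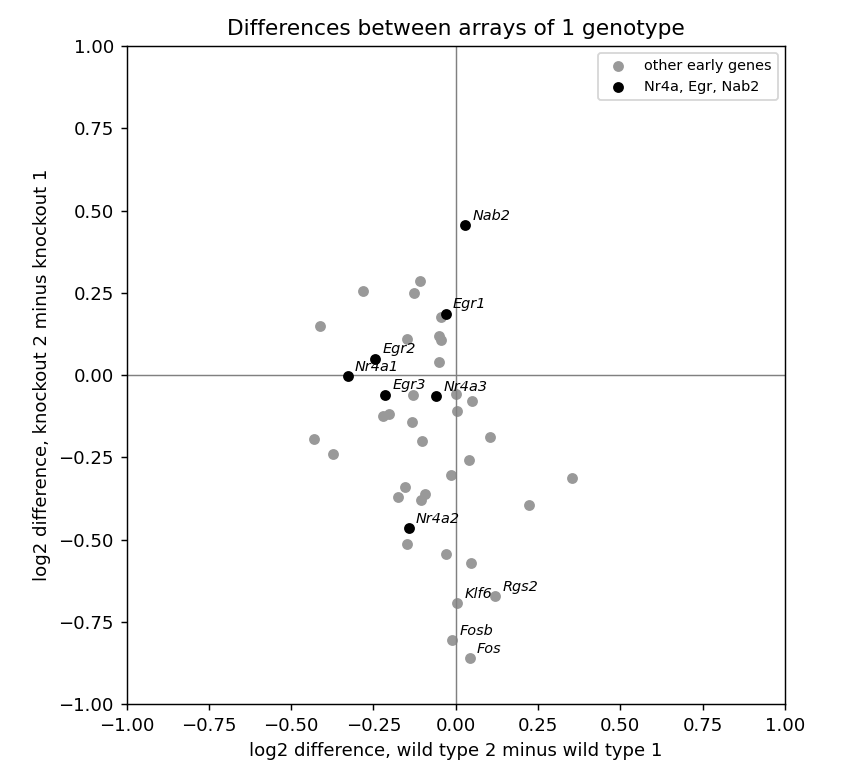
Log2 difference between the 2 wild-type arrays (horizontal axis) and between the 2 knockout arrays (vertical axis), replicate 2 minus replicate 1, for the 7 genes (black) and 35 other early genes (grey). Fos and Fosb lie lowest, Nr4a2 lies at -0.47 on the vertical axis, and Nab2 at 0.46 is the highest point.

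Among these other early genes, 5 of 35 were higher and 1 lower in the knockout than in wild type, beside 4.79% and 3.50% of all genes tested, with a median log2 fold change of 0.09. The largest rise was that of Bhlhe40, a basic helix-loop-helix factor induced by receptor signalling, which read 343 and 313 in wild type against 1348 and 1222 in the knockout (log2 fold change 1.97, adjusted p = 3.45e-28). Nfkbia, the inhibitor IkB alpha, rose by 0.93, Gadd45b, a stress-induced signalling adaptor, by 0.77, the MAP kinase phosphatase gene Dusp4 by 0.69 and the transcription factor gene Nfil3 by 0.53. Myc, the growth-promoting factor, read 878 and 847 in wild type against 425 and 437 in the knockout. Leaving out wild-type replicate 2 gave 2 higher genes, leaving out knockout replicate 2 gave 8, and leaving out knockout replicate 1 gave 6 lower genes. Dusp4 and Gadd45b lost their call without wild-type replicate 2 (adjusted p = 0.264 and 0.0611), and Nfil3 without either wild-type array and without knockout replicate 1 (0.126 to 0.561). Dusp1, another MAP kinase phosphatase gene, Rel, an NF-kB subunit, and Jun, an AP-1 subunit, had log2 fold changes of 0.40, -0.05 and -0.11 and were not past the threshold.

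Among regulators that act on Nr4a and Egr transcription or protein, the 1 gene called was Nab1, which acts on Egr proteins. This list held NFAT factors, calcineurin subunits, MEF2, SRF and its ternary complex factors, CREB, MAP kinase kinases and Nr4a partners. Of 24 tested, 1 was higher, Nab1, and 0 were lower, beside 4.79% and 3.50% of all genes tested. The median log2 fold change was -0.03, with a range of -0.37 to 0.55. Nfatc1, which carries the calcineurin signal, read 1628 and 1685 in wild type against 1793 and 1599 in the knockout. The count of lower genes was 1 without knockout replicate 1, and Nab1 had lost its call without 3 of the 4 arrays, as given above. A further 3 listed genes had no probe set with exactly 1 symbol and were not analysed here.

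Genes known as targets of Nr4a or Egr factors in T cells were read next. Of 30 tested, 5 were higher and 2 lower, beside 4.79% and 3.50% of all genes tested, with a median log2 fold change of 0.03. Havcr2, the gene of the inhibitory receptor TIM-3, read 124 and 108 in wild type against 268 and 267 in the knockout (log2 fold change 1.20, adjusted p = 2.23e-10). The inhibitory receptor gene Tigit rose by 0.86, Prdm1, which encodes Blimp-1, by 0.83, Tnfrsf9, which encodes the costimulatory receptor 4-1BB, by 0.80 and Nrgn by 0.54. Id3, an inhibitor of E proteins and a target of Egr factors, read 320 and 267 in wild type against 161 and 186 in the knockout, and Socs3, a brake on cytokine signalling, fell by 0.60 on the log2 scale. Foxp3, Ctla4 and Il2ra, Treg genes that Nr4a factors help to maintain, were not past the threshold, with log2 fold changes of -0.26, -0.23 and -0.45, nor was Ikzf2, which encodes Helios, with 0.32. Havcr2, Tigit and Tnfrsf9 kept their calls without each array in turn. Prdm1 lost its call without wild-type replicate 2 (adjusted p = 0.0675) and Id3 without wild-type replicate 1 (0.160). Nrgn and Socs3 lost theirs without either wild-type array (0.369 and 0.224 for Nrgn, 0.279 and 0.127 for Socs3), and Nrgn also without knockout replicate 2 (0.0564).

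A further list held surface proteins and brakes whose level follows the strength of the receptor signal. Of 19 tested, 1 was higher, Tnfrsf9, and 1 lower, Izumo1r, the folate receptor 4 gene, close to the 8.29% of all genes tested that changed either way, with a median log2 fold change of -0.06. Cd5, a surface protein set by receptor signalling in the thymus, read 1713 and 1516 in wild type against 1193 and 1232 in the knockout, below both wild-type arrays but not past the threshold (log2 fold change -0.41, adjusted p = 0.128). The call of Izumo1r was lost without either wild-type array (adjusted p = 0.431 and 0.128 without replicates 1 and 2). This list shares Tnfrsf9, Tnfrsf4 and Lag3 with the list of targets and Cd69 with the list of other early genes.

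Since early genes can also rise while tissue is dissociated and cells are sorted, heat shock genes that respond to such handling were read on the same arrays. Of 10 tested, 0 were higher and 2 lower in the knockout, beside 4.79% and 3.50% of all genes tested. All 10 log2 fold changes were below 0, with a median of -0.24, and 7438 of all 13956 genes tested were also below 0. Hspa1a, an inducible HSP70 gene, read 314 and 322 in wild type against 255 and 138 in the knockout, and Dnajb1, its cochaperone gene, 490 and 487 against 363 and 280. Without knockout replicate 2 neither was called (adjusted p = 0.341 and 0.158), and Dnajb1 was also lost without either wild-type array (0.181 and 0.155). Their part in the values of Nr4a2 and the other early genes was not tested.

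**Figure D5:**
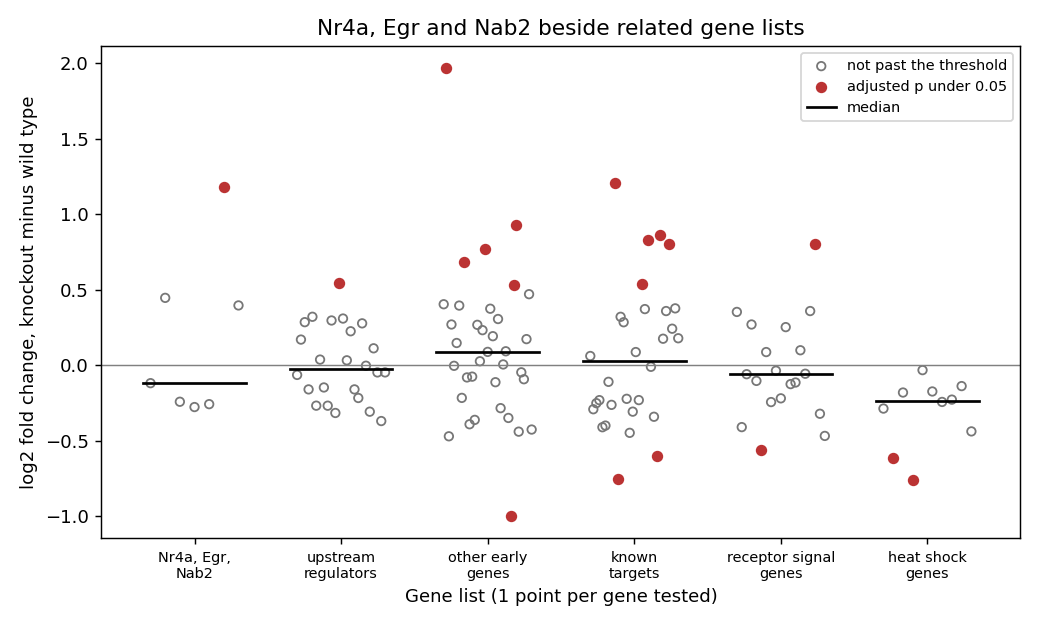
Log2 fold change, knockout minus wild type, of every gene tested in 6 lists, with filled points for an adjusted p under 0.05 and a black line at each list's median. The medians lie between -0.24 for the heat shock genes and 0.09 for the other early genes, and 1 of the 7 Nr4a, Egr and Nab2 points is filled, Nr4a2 at 1.18.

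The 7 genes did not share 1 pattern over the 4 arrays. After centring each gene on its own mean, the closest pairs by root mean square distance of log2 values were Nr4a1 with Egr3 (0.05) and Nr4a3 with Egr2 (0.08), and the furthest was Nr4a2 with Nab2 (0.80). Over all genes tested, the 3 nearest to Nr4a2 were Casp1 (0.02), the caspase that processes interleukin-1 beta, Myo1f (0.05), a myosin, and Pdcd1lg2 (0.05), which encodes the PD-1 ligand PD-L2. Casp1 read 189 and 171 in wild type against 463 and 350 in the knockout, and it rose by a log2 fold change of 1.16 (adjusted p = 1.11e-09). The nearest to Nr4a1 were Clta, Timm44 and Ngly1, to Nr4a3 Acvr1, Msi2 and Psmd8, and to Egr2 Slc35b2, Fbxw8 and Atcay. The nearest to Egr1 were Grk3, Ogn and Ccar2, to Egr3 Ints13, Zfp623 and Araf, and to Nab2 Tmem41a, Setd6 and Disp1. The distance rests on 4 arrays and is a description.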

How the data were processed

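The authors deposited 1 linear intensity for every probe set on every array, from 26.6 to 7205, with array medians of 99.0 to 105. Biotinylated cRNA was made by the Affymetrix procedure, per the labels' protocols; their summary, background correction and scaling: not given in the sources used here. The lowest values stay above 0, which understates folds of dim genes. Of 35557 probe sets, 21789 had 1 gene symbol in the platform annotation, 1621 several and 12147 none listed. Each gene was represented by its brightest probe set on average, values became log2(value + 1), and genes above the 30th percentile (intensity 77.4) were tested.

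Knockout was compared with wild type in limma 3.58.1 (R 4.3.3; lmFit and eBayes on all 4 arrays, Benjamini-Hochberg adjustment over 13956 genes, threshold 0.05). The estimated spread was the same for all genes, so every log2 fold change has an SE of 0.17; the smallest fold called was 1.40. The number of arrays limits the precision. The code was tested on simulated data. Alternatives covered the filter, scaling, pseudocount, variance model, array weights, probe set, threshold, replicate number and each array left out. The genes, lists and named genes were chosen with earlier results of these data known. Named genes were all 7, up to 4 called per list, some of the brightest and the 3 nearest by pattern. The further called early genes and targets were added after their values were seen. Genes such as Foxp3, Ctla4, Ikzf2 and Cd5 were named outside this rule, and brighter genes such as Dgka, Ptpn22 and Hspa8 were left out. RefSeq tables (GRCm38.p6) gave promoter sequences and overlapping genes; the build behind the array files is not named in these sources.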

Additional observations from a re-analysis of the deposited data

How the results depend on the processing

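Nr4a2 kept its direction under all 15 alternatives and passed the threshold in 14; with no pooling of variances its log2 fold change of 1.18 had an adjusted p = 0.361, and the counts of genes higher and lower, of the 7 genes higher and of early genes higher and lower were all 0. Nr4a1, Nr4a3, Egr1, Egr2, Egr3 and Nab2 kept their direction and stayed short of the threshold under all 15. Leaving out each array in turn gave 254 to 919 genes higher (669 with all arrays) and 118 to 767 lower (488), 2 to 8 early genes higher (5) and 1 to 6 lower (1). At an adjusted p under 0.01, 278 genes were lower. Early genes lower numbered 2 with 16 added before the logarithm and 3 with an intensity trend. For most of these shifts the cause was not tested. The replicate number as a block in limma gave 603 genes higher and 428 lower and changed no call among the 7. Nr4a2 then had an adjusted p = 3.93e-09. Same-numbered arrays did not deviate together across genes as a whole (r = -0.09, over genes that are not independent replicates). This r cannot show whether same-numbered arrays shared a litter, day or batch, which the labels do not state. Counts of the other lists without each array and with no pooling were added after seeing the data. The log2 differences between the knockout arrays moved by less than the spread of the wild-type arrays under every alternative tried. Without a detection call, dim genes such as Egr4 cannot be called absent, and 2 arrays a group leave changes under 1.40-fold uncalled.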
